A study of Mus musculus with 8 samples.

Results

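Sgcd, Tmc7, Srrm4, Cntnap2 and Reln, 5 of the 16333 genes in the deposited tables, were studied in isolated mouse pancreatic islets. They were chosen by their KO over Mut fold changes in the authors' deposited tables, which list them as lower in islets of NFATc2 knockout mice, and they were grouped for roles best known from neural and excitable cells. The genotype differences given here are therefore a description without a test. The responses to cytokines were not used in the choice and were tested. By known role the name neural-type applies to Srrm4, Cntnap2 and Reln, whereas Sgcd is best known from muscle and Tmc7 from a family of membrane channels.

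Endocrine cells of the islet share much of their gene programme with neurons, including regulated secretion, membrane excitability and a set of neural splicing factors, although they arise from endoderm. Sgcd encodes δ-sarcoglycan, a part of the dystrophin-associated complex that ties the cytoskeleton to the extracellular matrix. Tmc7 belongs to the transmembrane channel-like family, whose founding members take part in mechanotransduction by hair cells of the inner ear. Srrm4 encodes a splicing factor that promotes the inclusion of neural microexons, Cntnap2 encodes CASPR2, an axonal adhesion protein that gathers voltage-gated potassium channels, and Reln encodes reelin, a secreted glycoprotein that guides neuronal layering. NFATc2, the deleted factor, is a transcription factor that enters the nucleus when calcineurin removes its phosphate groups.

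The knockout islets (KO) came from 2 adult mice in which tamoxifen had removed Nfatc2 from the cells that the labels call INS-1 expressing, and the wild-type islets from 2 mice that received tamoxifen and kept the gene. All 4 mice carried the strain label Agouti/C57BL6, and the growth protocol also names C57BL/6 mice from a commercial supplier as an islet source. Islets were cultured overnight in 5.5 mM glucose. Those of each mouse were then divided into a culture left alone for 2 h and a culture exposed for the same 2 h to IL1β (5 ng/mL), TNFα (10 ng/mL) and IFNγ (50 ng/mL) in 11 mM glucose, so that cytokines and glucose cannot be told apart. The driver of the recombinase and the deleted exons are not given in the sources used here, and cells outside the deletion remain in these islets. In the deposited tables the wild-type islets appear to be the genotype written Mut, a name no label uses; as the remaining genotype it stands here for wild type and is kept. Each genotype had 1 female and 1 male mouse by the reads of 4 Y-linked genes, so each of the 8 libraries is named below by genotype, treatment and sex. The replicate is the mouse, with 2 per genotype.

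Values are normalized counts, reads divided by a size factor for each library, and whole reads per library were recovered from the deposited group means for 16317 genes. The libraries held 14567808 to 26882336 reads on those genes. The islet hormone genes Ins2, Ins1 and Gcg had means of 980839, 573453 and 207563 normalized counts, so the labelled tissue showed its defining transcripts. Nfatc2 held 842 to 1167 normalized counts in KO and 1144 to 1646 in Mut libraries, ranges that overlap. A count over the whole gene in mixed islet cells is a limited check of a deletion whose exons are not given. Acinar markers differed widely between preparations and are given with the other cell types below.

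The genes lie apart from each other on GRCm38, with only Reln and Srrm4 on the same chromosome. Sgcd (ENSMUSG00000020354) spans 1093 kb at chr11:46896253-47988969 on the minus strand, and Tmc7 (ENSMUSG00000042246) spans 48.9 kb at chr7:118535841-118584736 on the minus strand. Srrm4 (ENSMUSG00000063919) spans 153 kb at chr5:116439275-116591817 and Reln (ENSMUSG00000042453) spans 460.2 kb at chr5:21884454-22344702, both on the minus strand. Cntnap2 (ENSMUSG00000039419) spans 2245 kb at chr6:45059357-47304213 on the plus strand. Its span and that of Sgcd exceed those of nearly all protein-coding genes in the tables: only 0.0306% of the 13070 have a span at least as long as Cntnap2 and 0.191% one as long as Sgcd, against a median of 25.6 kb.

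Promoters of 3 of these genes are shown because they differ most in matches to GGAAA, the core letters of NFAT recognition sites. Each is the 250 bases before the start of the gene in RefSeq on GRCm38.p6, read 5′ to 3′ on the strand of the gene, with matches to GGAAA or its reverse complement TTTCC in capitals.
Sgcd promoter: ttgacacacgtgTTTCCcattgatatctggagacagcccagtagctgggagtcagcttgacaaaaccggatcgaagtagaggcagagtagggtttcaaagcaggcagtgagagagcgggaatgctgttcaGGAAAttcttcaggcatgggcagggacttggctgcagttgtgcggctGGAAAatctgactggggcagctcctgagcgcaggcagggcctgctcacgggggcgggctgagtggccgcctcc
Srrm4 promoter: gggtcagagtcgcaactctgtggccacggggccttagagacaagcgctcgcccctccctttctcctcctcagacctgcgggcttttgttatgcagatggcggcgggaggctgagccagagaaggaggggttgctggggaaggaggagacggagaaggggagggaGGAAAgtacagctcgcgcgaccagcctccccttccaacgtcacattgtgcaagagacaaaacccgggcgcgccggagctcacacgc
Reln promoter: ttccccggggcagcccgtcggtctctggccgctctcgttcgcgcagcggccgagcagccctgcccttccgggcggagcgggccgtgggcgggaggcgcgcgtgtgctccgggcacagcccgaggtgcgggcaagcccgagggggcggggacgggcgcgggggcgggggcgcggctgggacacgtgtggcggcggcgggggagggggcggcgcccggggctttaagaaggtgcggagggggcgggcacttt
The windows are chr11:47379326-47379575 for Sgcd, which lies inside the longer GENCODE span of the gene, chr5:116591818-116592067 for Srrm4 and chr5:22344706-22344955 for Reln, all on the minus strand.

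The Sgcd promoter held 3 matches to GGAAA, the main Cntnap2 promoter 2, and those of Tmc7 and Srrm4 1 each, while the Reln window held 0. Of all 32851 RefSeq promoters of the same length 55.6% held at least 1 match on either strand, with a median of 1, so a single match is common. The AP-1 motif TGANTCA, often found beside NFAT sites, matched in none of these windows and in 6.75% of all promoters. The Reln promoter was 80% G or C, above the other 4 at 58% to 66% and the median of 52.4% over all promoters. A match of letters is not a binding site, and binding was not measured here.

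Sgcd had the clearest separation of single libraries between genotypes. Its normalized counts were 44.5 in the KO untreated female, 39.2 in the KO untreated male, 41.9 in the KO cytokine female and 45.9 in the KO cytokine male. The Mut libraries held 138 and 118 normalized counts untreated and 115 and 117 with cytokines, female before male. The highest KO library stood at 39.8% of the lowest Mut library, so the genotypes did not overlap in either culture. These values rest on 33 to 54 reads per KO library and 103 to 141 per Mut library. Group means were 41.8 ± 3.76 in KO and 128 ± 14.3 in Mut islets untreated (SD, n = 2), and 43.9 ± 2.82 and 116 ± 1.66 with cytokines. Within the same sex and culture, KO islets held 32.2% to 39.0% of the Mut level. As log2 fold changes of KO over Mut, the authors' deposited tables list -1.62 (SE 0.34) untreated and -1.40 (SE 0.34) with cytokines.

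Tmc7 differed little between the Mut mice and more between the KO mice. KO libraries held 233 and 187 normalized counts untreated and 227 and 179 with cytokines, female before male. Mut libraries held 392 and 367 normalized counts untreated and 426 and 410 with cytokines. The KO female was above the KO male in both cultures, and even so the highest KO library reached 63.6% of the lowest Mut library. Group means were 210 ± 32.6 in KO and 379 ± 18.0 in Mut islets untreated (SD, n = 2), and 203 ± 33.9 and 418 ± 11.2 with cytokines. The authors' deposited tables give KO over Mut log2 fold changes of -0.85 (SE 0.22) untreated and -1.05 (SE 0.22) with cytokines.

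Srrm4, the neural splicing factor, was lower in every KO library too, with a wider spread between the Mut mice. KO libraries held 261 and 223 normalized counts untreated and 264 and 256 with cytokines, female before male. Mut libraries held 491 and 383 normalized counts untreated and 464 and 377 with cytokines. The Mut female stood above the Mut male in both cultures, and the highest KO library was at 70.1% of the lowest Mut library. Group means were 242 ± 27.1 in KO and 437 ± 76.2 in Mut islets untreated (SD, n = 2), and 260 ± 5.27 and 420 ± 61.6 with cytokines. The authors' deposited tables list -0.85 (SE 0.23) untreated and -0.69 (SE 0.23) with cytokines as its log2 fold changes. The antisense gene Srrm4os overlaps exons of Srrm4 and is not in the tables, and the strandedness of the libraries is not given in these sources, so their reads cannot be told apart.

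Cntnap2 had the highest level of these genes and the smallest genotype difference. KO libraries held 1326 and 1093 normalized counts untreated and 1349 and 1098 with cytokines, female before male. Mut libraries held 1942 and 1765 normalized counts untreated and 1845 and 1757 with cytokines. The KO female exceeded the KO male by a ratio of 1.21 untreated and 1.23 with cytokines, and the highest KO library still lay at 76.8% of the lowest Mut library. Group means were 1210 ± 165 in KO and 1854 ± 125 in Mut islets untreated (SD, n = 2), and 1223 ± 177 and 1801 ± 62.3 with cytokines. The authors' deposited tables give KO over Mut log2 fold changes of -0.62 (SE 0.17) untreated and -0.56 (SE 0.17) with cytokines.

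Reln had the lowest level and the largest fold difference, and it varied most between the Mut mice. KO libraries held 13.4 and 26.6 normalized counts untreated and 27.9 and 24.6 with cytokines, female before male, from 15, 36, 22 and 29 reads. Mut libraries held 117 and 61.9 normalized counts untreated and 165 and 70.0 with cytokines, from 88, 54, 152 and 84 reads. The Mut female held 1.89 times the level of the Mut male untreated and 2.36 times with cytokines, and the highest KO library was at 45.1% of the lowest Mut library. Group means were 19.98 ± 9.38 in KO and 89.4 ± 39.0 in Mut islets untreated (SD, n = 2), and 26.3 ± 2.32 and 118 ± 67.2 with cytokines. The authors' deposited tables give KO over Mut log2 fold changes of -2.15 (SE 0.60) untreated and -2.16 (SE 0.60) with cytokines. Without the Mut female the difference with cytokines was -1.40 on the log2 scale of the recovered counts. The antisense gene Gm10475 overlaps exons of Reln and is not in the tables.

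**Figure D1:**
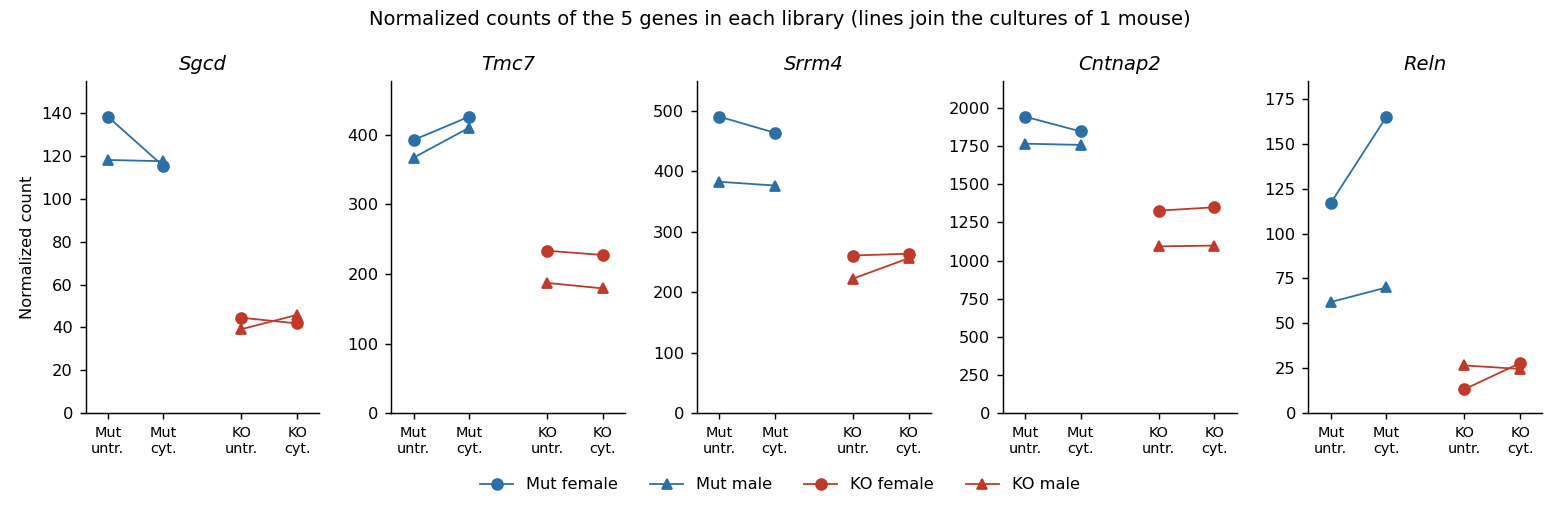
Normalized counts (vertical axis, linear from 0, a separate scale for each gene) of the 5 genes in the 8 libraries, with circles for female mice, triangles for male mice and a line joining the untreated and cytokine cultures of a mouse. All KO points lie below all Mut points for each gene, the lines are nearly flat for Cntnap2, and the Mut female stands apart for Reln at 117 and 165.

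For all 5 genes every KO library lay below every Mut library. Over all 8 libraries 4.76% of the 16317 genes with library values showed that order, against 18.3% in the untreated libraries alone and 14.2% in those with cytokines. Because the genes were chosen as lower in KO islets, nothing is read from this count. At a false discovery rate (FDR) below 0.05 in the authors' deposited tables, 4 of the 5 genes were listed as lower untreated, where 0.0551% of all genes were, and 3 with cytokines, where 0.184% were. The untreated threshold fell just after Srrm4 (FDR 0.0408) and Cntnap2 (FDR 0.0481) in the authors' deposited table, with Reln outside it at 0.0773. With cytokines Reln stood inside at 0.0364, and Cntnap2 at 0.0666 and Srrm4 at 0.137 stood outside in the authors' deposited table. Sgcd and Tmc7 were inside in both conditions, as were 4 of all genes (0.0245%) among those lower. The genes were chosen from these same comparisons, so the calls and p-values between genotypes describe the choice and are no test of it. The counts of calls also change with the model of the spread. Limma on the recovered counts called 0 of the 5 without a block in either condition, with lowest adjusted p-values of 0.133 and 0.123, where it called 2 of all genes (0.0123%) in each. With a covariate for sex it called 4 of the 5 in each condition, all but Reln, where 2.1% and 3.73% of all genes were called. Both of these limma fits count the 2 libraries of a mouse as independent, so their p-values are too small. Whether the authors' model did the same is not given. For each gene the deposited log2 fold changes of the 2 conditions differ by less than either deposited standard error.

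Per kilobase of exon the mean over all libraries was 149 normalized counts for Cntnap2, 52.5 for Tmc7, 39.1 for Srrm4, 10.0 for Sgcd and 2.67 for Reln. On this per-kilobase scale no neighbours in that order overlapped within a genotype. The closest were Tmc7 and Srrm4, whose levels ran from 31.1 to 40.5 and from 25.6 to 30.4 in KO libraries, and from 63.6 to 73.9 and from 43.4 to 56.5 in Mut libraries. Among protein-coding genes in the tables, 48.4% had a level per kilobase at or above that of Cntnap2, while 94.6% were at or above Sgcd and 99.9% at or above Reln. Cntnap2 was thus a gene of middling abundance in islets and Reln was near the lower edge of what the tables hold.

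The cytokine treatment asks whether an inflammatory stimulus moved these genes within 2 h. None of the 5 passed an FDR of 0.05 in either genotype in the authors' deposited tables, where 0.0429% of all genes were called in KO and 0.0122% in Mut islets. None had an unadjusted p below 0.05 either, against 1.02% and 0.918% of all genes. A well calibrated test would pass more genes than this at that level even with no response, so the deposited test was conservative here. The absence of calls therefore says little. A limma fit of the recovered counts, blocked by mouse, called 20 genes (0.123%) in KO and 25 (0.153%) in Mut islets, and 0 of these 5. Without the block it called 0 genes.

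Of the 5 genes Cntnap2 had the narrowest intervals. The authors' deposited tables give its log2 response as 0.02 (SE 0.18, 95% interval -0.33 to 0.36) for KO and -0.04 (SE 0.18, 95% interval -0.39 to 0.30) for Mut islets. For Tmc7 the authors' deposited tables give -0.05 (SE 0.25, 95% interval -0.53 to 0.43) and 0.14 (SE 0.24, 95% interval -0.33 to 0.61), KO before Mut. Srrm4 is listed in the authors' deposited tables with 0.10 (SE 0.25, 95% interval -0.39 to 0.59) and -0.05 (SE 0.25, 95% interval -0.54 to 0.43). By these standard errors responses within the intervals are compatible with the data, and the intervals are not limits of detection. The limma fit blocked by mouse gave smaller standard errors. In each genotype they were 0.056 for Cntnap2, 0.094 for Tmc7 and 0.095 for Srrm4, so the intervals above are wide for paired cultures.

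The intervals were wider for the less abundant genes. For Sgcd the authors' deposited tables give a log2 response of 0.07 (SE 0.40, 95% interval -0.71 to 0.85) for KO and -0.14 (SE 0.36, 95% interval -0.85 to 0.57) for Mut islets. Reln had the largest point values in the authors' deposited tables, 0.48 (SE 0.57, 95% interval -0.63 to 1.59) for KO and 0.35 (SE 0.51, 95% interval -0.64 to 1.35) for Mut islets. Its KO value came from the female mouse, whose treated culture held 209% of the untreated level while that of the male held 92.5%. In the Mut mice the treated cultures held 141% and 113% of the untreated level of Reln, female before male.

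**Figure D2:**
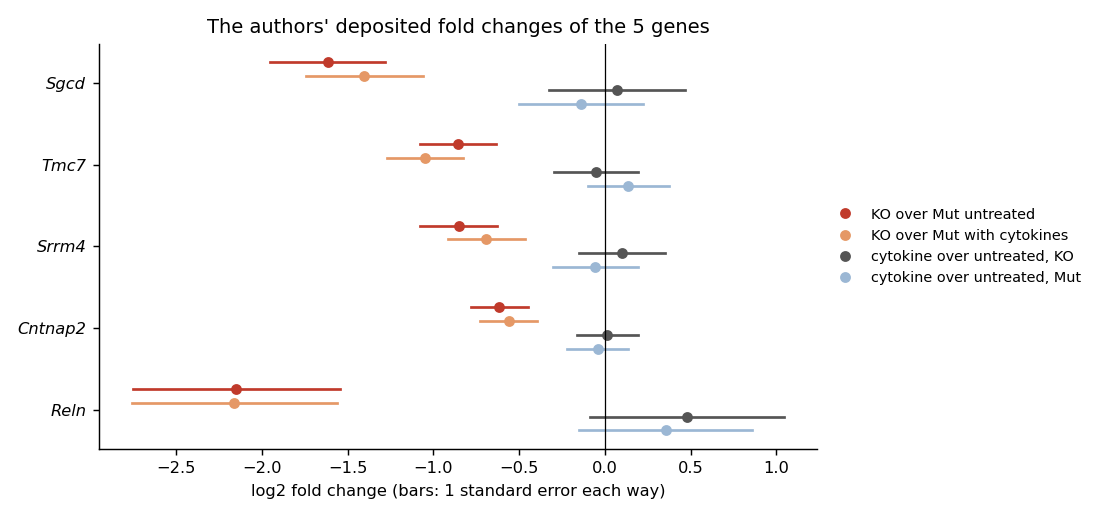
Log2 fold changes of the 5 genes in the authors' deposited tables (horizontal axis), with bars of 1 standard error each way, for KO over Mut untreated and with cytokines and for cytokine over untreated in each genotype. Both genotype comparisons lie left of 0 for every gene, from -2.16 for Reln to -0.56 for Cntnap2, and the cytokine responses lie between -0.14 and 0.48.

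The response to cytokines was compared between genotypes as the difference of the 2 deposited log2 fold changes, and 0 of the 5 genes passed an adjusted p of 0.05, where 0 of all 16333 genes did and 0.22% had an unadjusted p below 0.05. The KO minus Mut difference on the log2 scale was 0.21 (SE 0.54) for Sgcd, -0.19 (SE 0.34) for Tmc7, 0.16 (SE 0.35) for Srrm4, 0.06 (SE 0.25) for Cntnap2 and 0.13 (SE 0.76) for Reln. Limma on the recovered counts also called 0 genes, with and without the mouse as a block. The intervals of these differences all include 0 and reach from -0.86 to 0.48 for Tmc7 and from -0.43 to 0.55 for Cntnap2, which does not show that the responses were alike.

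Cntnap2 could also be read through its introns, which hold 21 other entries of the tables. Of these 1 is Rbpj-ps3, a pseudogene on the opposite strand with a mean of 25.9 normalized counts, which was set aside. The other 20 are annotated by GENCODE as TEC, unspliced loci awaiting experimental evidence, on the same strand as Cntnap2 and outside its exons, from 14.2 to 1727 kb after its start. Their reads may come from unspliced Cntnap2 RNA or from separate transcripts, which was not tested, and as parts of a single stretch of DNA they are not independent of each other. All 20 were lower in KO islets in both conditions in the authors' deposited tables, with median log2 fold changes of -0.49 untreated and -0.57 with cytokines. The 1097 TEC entries in the tables had medians of 0.02 and -0.02 in the authors' deposited tables. Among all 16333 genes 8333 were lower in KO islets untreated and 8299 with cytokines. None of the 20 passed an FDR of 0.05 in either comparison, while their log2 values ran from -0.71 to -0.24 untreated and from -1.05 to -0.04 with cytokines.

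Summed over the 20 loci, KO libraries held 2916 and 2167 normalized counts untreated and 2992 and 2192 with cytokines, female before male. Mut libraries held 3202 and 3852 untreated and 3152 and 4720 with cytokines. The sums did not overlap between genotypes, though the females came close: the KO female held 91.1% of the Mut female untreated and 94.9% with cytokines. The KO male held 56.3% and 46.5% of the Mut male. Over the spliced gene itself the same pairs stood at 68.3% and 73.1% in females and 61.9% and 62.5% in males. Of the 20 loci 8 had every KO library below every Mut library, an order shown by 4.76% of all genes with library values. Their cytokine responses had medians of 0.03 in KO and 0.09 in Mut islets, beside 0.04 and 0.08 over all TEC entries.

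**Figure D3:**
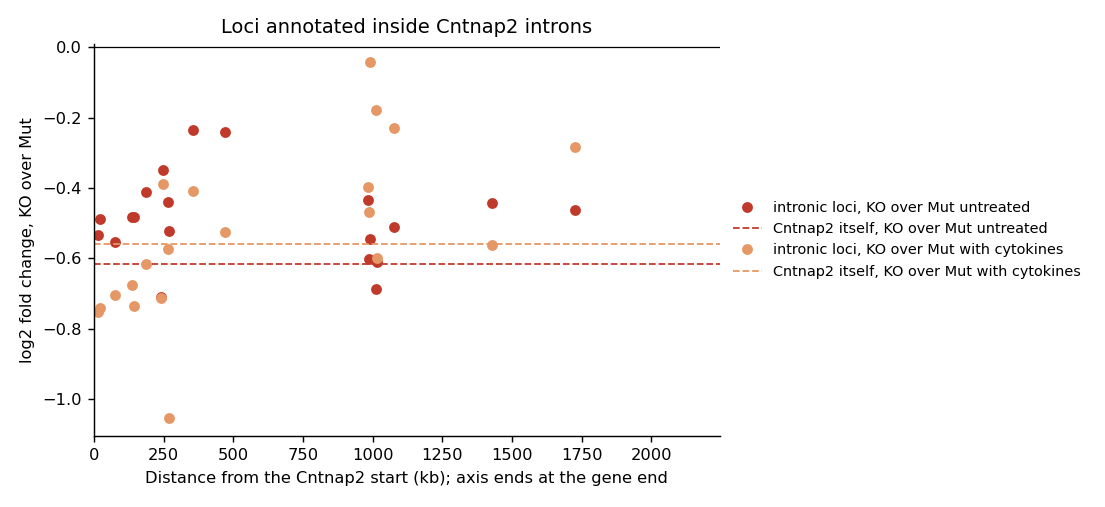
Log2 fold change of KO over Mut islets (vertical axis) for the 20 loci annotated inside Cntnap2 introns, by distance from the start of Cntnap2 in kb (horizontal axis), untreated and with cytokines. Dashed lines mark Cntnap2 itself at -0.62 and -0.56, and all points lie below 0.

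Relatives of these genes were set beside them through lists of their families and pathways. Over all genes the median KO over Mut log2 fold change was -0.0040 untreated and -0.0032 with cytokines, with 58 genes (0.355%) called higher and 9 lower untreated, and 133 (0.814%) and 30 with cytokines. For Sgcd the list held 13 measured genes of the sarcoglycan and dystrophin complex, of which 0 were called in either comparison, with medians of 0.09 untreated and 0.0013 with cytokines. The widely expressed sarcoglycan genes Sgcb and Sgce held 434 to 533 and 198 to 378 normalized counts with overlapping genotypes, and the muscle gene Sgca was not in the tables. The single relative with a low value was Sgcz, which encodes ζ-sarcoglycan. Its KO libraries held 45.4 and 10.4 normalized counts untreated and 39.3 and 9.34 with cytokines, female before male, and its Mut libraries held 146 and 99.7, then 153 and 84.1. Every KO library of Sgcz lay below every Mut library, and the authors' deposited tables give -2.15 (SE 0.76, FDR 0.326) and -2.31 (SE 0.77, FDR 0.152), short of the threshold. For Sntg2, a syntrophin gene of the same list, the authors' deposited tables give 1.39 (SE 0.90) and 1.47 (SE 0.90), also short of it. For Utrn, which encodes the dystrophin relative utrophin, the authors' deposited tables give 0.15 (SE 0.13) and 0.22 (SE 0.13).

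Of the TMC family 5 genes besides Tmc7 were measured and 0 were called. The most abundant, Tmc4, had log2 fold changes in the authors' deposited tables of 0.055 (SE 0.13) untreated and 0.033 (SE 0.13) with cytokines. Tmc3 and Tmc5 had means of 24.3 and 25.3 normalized counts, near the lowest in the tables. The authors' deposited tables give log2 fold changes of 1.17 (SE 1.19) and 0.82 (SE 1.17) for Tmc3, and of 1.13 (SE 0.89) and 1.00 (SE 0.87) for Tmc5. Tmc1 and Tmc2, the hair-cell genes, were not in the tables. Among 21 other neural splicing regulators 0 were called, with medians of 0.03 and 0.04. Srrm3, a paralogue with a related splicing role, has -0.02 (SE 0.17) and -0.03 (SE 0.17) in the authors' deposited tables, and its 8 libraries ran from 555.7 to 772 normalized counts with both genotypes mixed. Rest encodes a repressor of neuronal genes and is itself a known splicing target of Srrm4. The authors' deposited tables give 0.41 (SE 0.30) and 0.29 (SE 0.29) for Rest, and -0.38 (SE 0.20) and -0.35 (SE 0.21) for the neuronal splicing factor Nova1, none past the threshold. Nor were the RNA-binding protein genes Elavl2, with 0.78 (SE 0.38) and 0.36 (SE 0.37), and Mbnl3, with 0.70 (SE 0.86) and 1.96 (SE 0.83) in the authors' deposited tables.

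For Cntnap2 the list held 18 genes of CASPR, contactin and neurexin adhesion, with 0 called untreated and 1 lower with cytokines, and with medians of -0.08 and -0.18. The called gene was Cntn1, which encodes contactin 1, an axonal partner of CASPR proteins. The authors' deposited tables give -0.62 (SE 0.17, FDR 0.0383) with cytokines and -0.50 (SE 0.17, FDR 0.292) untreated. Its KO libraries ran from 1133 to 1319 normalized counts and its Mut libraries from 1589 to 2063. Cntn3 was not called, with the opposite sign in the authors' deposited tables, 0.76 (SE 0.32) and 0.81 (SE 0.32). The potassium channel gene Kcna2, whose product CASPR2 gathers in axons, was not called either, and the authors' deposited tables list it with 0.51 (SE 0.23) and 0.38 (SE 0.23).

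For Reln the pathway list held 14 genes, with 1 called higher in both conditions, 0 called lower, and medians of 0.02 and 0.01. That gene was Lrp8, which encodes the reelin receptor ApoER2. For Lrp8 the authors' deposited tables give 0.44 (SE 0.12, FDR 0.0463) untreated and 0.58 (SE 0.12, FDR 0.000489) with cytokines. KO libraries held 5210 to 6388 normalized counts of Lrp8 and Mut libraries 3860 to 4072, without overlap. For the other receptor, Vldlr, the authors' deposited tables give -0.12 (SE 0.16) and -0.17 (SE 0.16). Src, a kinase that acts on that pathway, has 0.53 (SE 0.18) and 0.40 (SE 0.18) in the authors' deposited tables, and Adamts4, a protease that can cut reelin, has -0.40 (SE 0.38) and -1.02 (SE 0.38), neither called. Dab1, the adaptor that relays the reelin signal, was not in the tables.

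Among 35 genes that endocrine cells share with neurons 0 were called higher in either condition, 2 were called lower untreated and 1 with cytokines, and the medians were -0.04 and -0.01. For Insm1, a zinc-finger factor of endocrine and neuronal precursors, the authors' deposited tables give -0.56 (SE 0.11, FDR 0.00091) untreated and -0.45 (SE 0.11, FDR 0.0126) with cytokines. For Vgf, a precursor of granule peptides, the authors' deposited tables give -0.60 (SE 0.15, FDR 0.0254) untreated and -0.37 (SE 0.15, FDR 0.432) with cytokines. Olfm1, which encodes the secreted protein olfactomedin 1, had the opposite sign, 0.72 (SE 0.23, FDR 0.211) and 0.69 (SE 0.23, FDR 0.166) in the authors' deposited tables, and was not called.

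The calls on listed genes in these paragraphs depend on the model of the spread as well. Over all 15 lists the authors' deposited tables called 4 genes untreated and 7 with cytokines. Limma without a block called 0 of them, with adjusted p-values from 0.176 to 0.397 for Lrp8 and from 0.216 to 0.291 for Insm1. With a covariate for sex it called 343 genes (2.1%) untreated and 608 (3.73%) with cytokines, of which 14 and 20 were listed, among them Sgcz lower and Cntn3 and Sntg2 higher in both conditions.

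**Figure D4:**
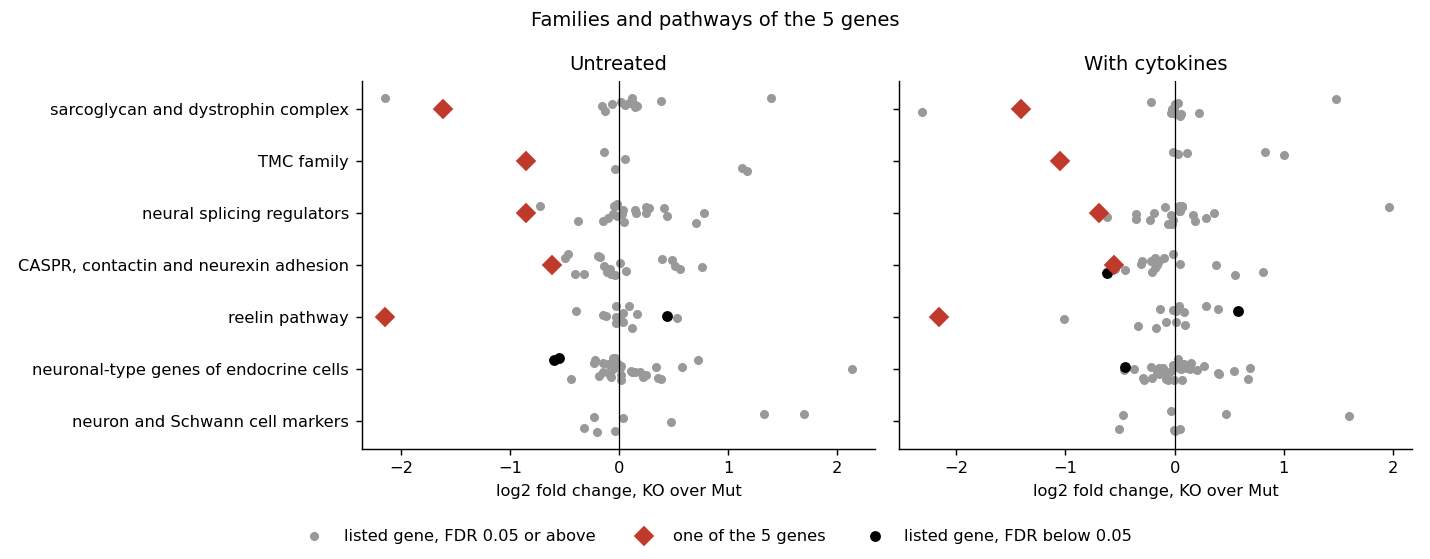
Log2 fold change of KO over Mut islets in the authors' deposited tables (horizontal axis), untreated on the left and with cytokines on the right, for each listed gene by list, with black points for FDR below 0.05 and red diamonds for the 5 genes. Most relatives lie near 0 while the diamonds lie between -2.16 and -0.56. The 5 genes were chosen as lower in these same comparisons, so nothing is read from that gap. Sgcz is the grey point beyond -2 in the top row.

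Markers of other cell types were read beside these genes. In whole islets fewer cells of a type and less RNA per cell cannot be told apart. Of 18 markers of neurons and Schwann cells 8 were in the tables and 0 were called, and the defining genes Sox10, Phox2a, Chat and S100b were not in the tables. The summed level of the 8 ran from 4706 to 5385 normalized counts in KO and from 4743 to 5222 in Mut libraries, most of it Mbp. Ngfr, a nerve growth factor receptor of Schwann cells and some stromal cells, was not called, with 1.70 (SE 0.48, FDR 0.0801) and 1.60 (SE 0.48, FDR 0.0718) in the authors' deposited tables, opposite in sign to the 5 genes. Beta cell markers had 0 of 9 called, with medians of -0.01 and 0.05. The sum of the 6 with library values ran from 71866 to 75380 normalized counts in KO and from 61405 to 68812 in Mut libraries. Most of that sum was G6pc2, and it leaves out Ins1 and Ins2, so it is a limited measure of beta cell content. Alpha cell, delta and PP cell, and duct markers had 0 called between genotypes in either condition. Their medians untreated and with cytokines were -0.05 and -0.01 for alpha, -0.08 and -0.17 for delta and PP, and 0.16 and -0.24 for duct.

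Endothelial markers had the sign of the 5 genes. All 7 were negative in both comparisons of the authors' deposited tables. Of these 0 were called untreated and 4 were called lower with cytokines, Pecam1, Cdh5, Kdr and Emcn. Of all 16333 genes 8333 were negative untreated and 8299 with cytokines, and 0.184% were called lower with cytokines. With cytokines the authors' deposited table lists -0.64 (SE 0.14, FDR 0.00245) for Pecam1, -0.65 (SE 0.17, FDR 0.0154) for Cdh5, -1.08 (SE 0.22, FDR 0.000662) for Kdr and -1.13 (SE 0.25, FDR 0.0023) for Emcn. The sum of the 7 was 3446 to 4522 normalized counts in KO against 5646 to 7539 in Mut libraries. The 4 lymphatic endothelial markers were also all negative, with 0 calls. Their sum was 2888 and 2190 normalized counts in KO islets untreated and 3182 and 2476 with cytokines, female before male, and 3101 and 2673, then 3800 and 2933, in Mut islets. Most of this sum was Prox1, with a mean of 2389 normalized counts, so it says little of the other markers. It was higher in the female in all 4 groups and overlapped between genotypes, as did Lyve1 and Pdpn. Flt4 did not overlap, with 211 to 292 normalized counts in KO and 337 to 517 in Mut libraries. For Flt4 the authors' deposited tables give -0.44 (SE 0.26) untreated and -0.86 (SE 0.26, FDR 0.0835) with cytokines. Most of the 13 stromal and mural markers went the other way, with Dcn called higher untreated (2.36, SE 0.54, FDR 0.00605, from the authors' deposited table). Their sums were 5443 to 14271 normalized counts in KO against 2510 to 11338 in Mut libraries. Untreated 2 of the 13 were negative, and 3 with cytokines. Among the mural markers Rgs5 and Cspg4 were negative in both comparisons and Pdgfrb with cytokines only, while Acta2 and Myh11 were positive in both. For Rgs5 the authors' deposited table gives -0.48 (SE 0.17, FDR 0.231) with cytokines, and for Cspg4 -0.70 (SE 0.45), neither called. Acinar markers had the sign of most stromal and mural ones. All 6 were positive in both comparisons of the authors' deposited tables, with 0 called, and medians of 0.45 untreated and 2.05 with cytokines. Their sum was 57909 and 25360 normalized counts in KO against 49184 and 5825 in Mut islets untreated, and 100133 and 17714 against 22202 and 4188 with cytokines, female before male. The part of endothelial, lymphatic, stromal or acinar cells in the levels of the 5 genes was not tested.

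The genes whose pattern over the 8 libraries was most like each of the 5 were named by Pearson correlation of log2 normalized counts. For Sgcd they were Insm1 (r = 0.99), Rpl30 (r = 0.98) and Agap1 (r = 0.97), and for Srrm4 Naa25 (r = 0.99), Insm1 (r = 0.99) and Vegfa (r = 0.98). For Cntnap2 they were Prom1 (r = 0.99), Sult1c2 (r = 0.99) and Phactr1 (r = 0.99), and for Tmc7 Cyp4f39 (r = 0.99), Sult1c2 (r = 0.99) and Pcdhga8 (r = 0.99). For Reln they were Pcdhgc5 (r = 0.99), Daam1 (r = 0.98) and Slc38a7 (r = 0.97). The 8 points share 4 mice and fall into 2 genotypes, so any gene with a clear genotype difference scores high.

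The 5 genes correlated with each other at r = 0.84 to 0.98 over the 8 libraries, for the same reason. Within a genotype, with 4 libraries of 2 mice, they did not form a single pattern. Tmc7 and Cntnap2 had r = 0.98 within KO and 0.16 within Mut libraries, and Srrm4 and Cntnap2 had r = 0.70 and 0.96. Reln had negative values with all 4 others within KO libraries, from -0.53 with Tmc7 to -0.34 with Srrm4, and positive values within Mut libraries, from 0.17 with Sgcd to 0.87 with Srrm4.

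Gene length was read because 3 of the 5 genes, Sgcd, Cntnap2 and Reln, span over 200 kb. Among the 770 protein-coding genes of that span, these 3 included, the median KO over Mut log2 fold change was -0.01 untreated and -0.06 with cytokines in the authors' deposited tables. In those deposited tables it was 0.02 and -0.0040 for 3161 genes of 50 to 200 kb, -0.00046 and -0.00075 for 6168 genes of 10 to 50 kb, and -0.04 and 0.0028 for 2971 genes under 10 kb. The part of length in the levels of the 5 genes was not tested.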

How the data were processed

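Libraries followed standard Illumina protocols per the labels. HISAT2, HTSeq, DESeq2 and the build GRCm38 are named in the submitters' processing notes, with no version or role. Over the same genes 4 comparisons were deposited. The signal columns deposited by the authors hold group means of read counts scaled by library size factors. The standard error was taken as the deposited log2 fold change divided by the deposited score (a Wald statistic), and the deposited p-values and FDR were used as given, with a call at FDR below 0.05. The deposited tables hold no library columns, and 0 columns of other samples were found.

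Each group mean in the tables adds up 2 whole read counts, each multiplied by a constant of its library, which gave whole reads for 16317 of 16333 genes (99.9%), of which 214 were settled through the mean over all libraries. The others, among them Ins1 and Ins2, have no library values. The lowest deposited mean was 23.2, so genes below it were not tested. The recovery and the fits were tested on simulated data.

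Recovered normalized counts were fitted with limma 3.58.1 in R 4.3.3 on log2(normalized count + 0.5), with no block, with the mouse as a block for cytokine responses, and with sex as a covariate between genotypes. Fold changes on this scale understate those of low genes. Untreated and treated libraries pair because the islets of each mouse were divided, per the series design, and the sex of the mouse matched them. Their deviations from the group means correlated at 0.78 in both KO and Mut mice over 14228 genes whose mean reached 50. Between untreated KO and Mut libraries, matched by sex only, the same correlation was 0.57, so it is not particular to a mouse. The difference in response was divided by the square root of the sum of both squared standard errors, with a two-sided normal p and Benjamini-Hochberg adjustment over all genes. Scripts used Python 3.11.15, pandas 2.3.3, numpy 2.4.6, scipy 1.17.1 and matplotlib 3.10.9.

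Positions, exon lengths and gene types are from GENCODE on GRCm38. Named were the 5 genes, Nfatc2, their direct relatives, every called gene of a list, and from each list the 2 genes with the smallest p in each genotype comparison. Of the marker lists only some of these are printed, and the rest are covered only by sums, medians or counts of their list. The genes most like each were taken by the highest Pearson correlation of log2(normalized count + 1) among those with a mean of at least 50. Kcna2 was picked with its values in view. The 5 genes and the lists were chosen with earlier results of these data known.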

Additional observations from a re-analysis of the deposited data

Results flagged for a closer look

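For 3 of the 5 genes both KO mice moved one way with cytokines and both Mut mice the other, a pattern shown by 8.38% of the 16317 genes with library values. Tmc7 was lower after treatment in both KO mice and higher in both Mut mice, with a KO minus Mut difference of -0.19 on the log2 scale (SE 0.34). Srrm4 was higher in both KO and lower in both Mut mice, with a difference of 0.16 (SE 0.35). Cntnap2 did the same, with a difference of 0.058 (SE 0.25). Each adjusted p for the difference was 0.999989 from the deposited fold changes, so none passed the threshold. Each difference is smaller than the standard error given here for it. With the mouse as a block, limma gave -0.19 (SE 0.13) for Tmc7, 0.16 (SE 0.13) for Srrm4 and 0.056 (SE 0.079) for Cntnap2. In that fit the differences of Tmc7 and Srrm4 exceed their standard errors, and each adjusted p was 0.998.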

How the results depend on the processing

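Of 80 genotype values of the 5 genes under the alternatives, 79 stayed within the spread of the main value, and Reln with cytokines moved to -1.40 without the Mut female. Of 120 cytokine values 116 kept their direction. Many of these values could not change, so both counts overstate how far the alternatives test the results. A filter on a mean of at least 50 normalized counts repeats the deposited fold changes. The mouse block and the sex covariate repeat the fold changes of the fit without a block. Leaving out a Mut mouse does not alter a KO response, nor a KO mouse a Mut response. When a mouse was left out, the KO response of Reln ran from -0.11 (without the KO female) to 1.04, that of Sgcd from -0.087 (without the KO male) to 0.22, and the difference in response of Reln from -0.45 (without the KO female) to 0.70, with -0.032 without the Mut male. In each of these a single mouse decided the sign. The median genotype difference of the 5 genes untreated was -0.85, and from -1.02 to -0.73 when a mouse was left out.

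With the replicate block (the mouse for cytokine responses, sex as a covariate between genotypes) 0 of the 5 genes were called in either cytokine response or the difference, as in the main test. Listed genes called between genotypes went from 4 to 14 untreated and from 7 to 20 with cytokines under the block, and to 0 and 0 with limma without a block, with a pseudocount of 2, or with any mouse left out (0 to 0). The 1 listed call in the KO response, Ppy, was also lost in those fits, going to 0, and kept under the block. The cause of these shifts was not tested. Over all genes the block moved the calls from 7 to 20 in the KO and from 2 to 25 in the Mut response. Between genotypes with cytokines, Srrm4 and Cntnap2 passed the threshold with the covariate (adjusted p 0.0235 and 0.0176) and Reln did not (0.0725), and without a block 0 of the 5 passed in either condition. As the 5 genes were chosen as lower in KO islets, these genotype calls are a description and not a test. The planned edgeR fits, with TMM or with DESeq2-type size factors, were not run because the deposited columns mix 2 libraries. With 13.4 to 165 normalized counts Reln was the gene most limited by depth.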
